A study of Mus musculus with 26 samples.

Results

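The immunoproteasome is a form of the 20S proteasome, the barrel that cleaves ubiquitin-tagged proteins, in which 3 inducible catalytic subunits take the place of their constitutive counterparts. The genes described here are those 3 subunits, Psmb8, Psmb9 and Psmb10, and the 2 subunits of the PA28 activator, Psme1 and Psme2, chosen by symbol. They are 5 of the 31053 genes listed for the sorted microglia. Psmb8 replaces Psmb5, Psmb9 replaces Psmb6 and Psmb10 replaces Psmb7, and the exchange alters which peptide bonds are cut. PA28 is a ring that docks on the end of the barrel and opens it without the 19S cap. Interferon-gamma is the classical inducer of all 5 genes, and the peptides that result are carried by the transporter TAP to MHC class I. Hematopoietic cells hold immunoproteasomes without stimulation, whereas neurons mainly hold the constitutive form.

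Pregnant C57Bl/6N mice received saline or Poly(I:C) by injection at E12.5. Poly(I:C) imitates viral double-stranded RNA and sets off maternal immune activation (MIA). Microglia of somatosensory cortex, with the meninges removed, were sorted as Cd11b+ Cx3cr1+ Cd45low cells after saline or MIA at E13, E15 and P14, with 3 libraries for each of the 4 embryonic groups, 4 for P14 saline and 2 for P14 MIA. An embryonic library pooled 2 to 8 embryos, and a P14 library pooled a male and a female littermate. The exceptions were the P14 saline libraries 3-female and 3-male, which each held a single animal. A figure legend of the study counts 4 saline and 2 Poly(I:C) mice at P14, 1 for each library, which disagrees with this pooling. Nuclei came from E15 somatosensory cortex of male embryos, from wild-type (WT) and Csf1r-null (KO) mice given either treatment, with 2 libraries in each of the 4 groups. The study places E13 at 1 day and E15 at 3 days after the injection, as the labels round these ages down. Csf1r encodes the receptor on which microglial survival depends, and the null allele is carried by every cell of the embryo. The study used wild-type littermates as controls and 4 pregnant dams in all for the nuclei, so libraries of both genotypes can share a litter. The p-values measure the spread between libraries, each of which is counted as 1 replicate, and litter was not modelled.

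By the GENCODE annotation of GRCm38, Psmb9 (17:34181987-34187764, minus strand) and Psmb8 (17:34197721-34201454, plus strand) lie on chromosome 17 with 9956 bases between them, and Tap1, which encodes a TAP subunit, fills that space and overlaps the start of Psmb9. Psme1 (14:55578123-55581529, plus) and Psme2 (14:55587441-55591113, minus) face each other on chromosome 14, separated by 5911 bases. Psmb10 stands apart on chromosome 8 (105935735-105938444, minus). Promoter windows from 250 bases before to 50 bases after the start (RefSeq, GRCm38.p6) were read for matches to the gamma-activated site GAS (TTCNNNGAA) and to the interferon-stimulated response element ISRE (GAAA, any 2 bases, GAAA) on both strands. GAS occurred in 8.30% and ISRE in 3.44% of all 32851 such windows. Of the 5 genes, Psmb8 held a GAS match 97 bases before its RefSeq start. Psme1 held an ISRE match 10 bases after its RefSeq start, on the opposite strand. For both genes the RefSeq start lies within the GENCODE span given above, and so does the match. The windows of Psmb9, Psmb10 and Psme2 held neither run of letters. Both matches are printed with their flanks, 5′ to 3′ on the plus strand with the motif in capitals, because they are the matches to these motifs found for the 5 genes. A match is a description of letters and not a bound site.
Psmb8, chr17:34198088-34198117: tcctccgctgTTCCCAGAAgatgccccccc
Psme1, chr14:55578493-55578522: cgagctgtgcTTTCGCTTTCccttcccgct

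After filtering, 32860 embryonic and 28325 P14 microglia were kept, with 6004416 to 95915564 UMIs per library, and 41539 nuclei, with 9276639 to 16452308. All levels below are counts per 1000000 (CPM), that is UMIs of the gene among 1000000 UMIs of the kept cells of a library. Such a level cannot tell fewer cells with a transcript from less transcript per cell. Some cell barcodes occurred in several microglia libraries: of the 375 cells past the filter in E13 MIA replicate 2, 258 and 239 recurred in the P14 saline 3-female and 3-male libraries and 230 in E15 MIA replicate 3, and of the 280 in E13 MIA replicate 1, 133 recurred in P14 MIA replicate 1 and 107 in P14 saline replicate 1. The shallower copies made up 16.3% of kept cells in E15 MIA replicate 3 and at most 6.61% elsewhere, and no call on the 5 genes changed when each shared barcode was kept in its deepest library alone. Cells in clusters called dividing from mitotic and histone genes made up 22.6% to 34.0% of microglia at E13, 5.6% to 23.9% at E15, where saline replicate 1 was highest, and at most 0.944% at P14. A further 3 embryonic clusters with DNA replication genes such as Dtl, Ung and Cdc6 among their leading genes were not counted there, and held 19.2% to 34.7% of microglia at E13, 3.49% to 11.9% at E15 and 0% at P14. In E15 MIA replicate 1, 24.3% of the cells past the filter belonged to other cell types and were removed. Among the nuclei, WT MIA replicate 2 held 0 microglia-like nuclei and 0 Csf1r UMIs, whereas KO saline replicate 2 held 7 such nuclei and 10 Csf1r UMIs, both against their labelled genotype. The library labelled WT saline replicate 1 had 29.3% interneurons, compared with 4.25% to 6.59% in the other 7 libraries.

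All 5 transcripts were readily detected in sorted microglia of every age, and none was called after MIA. Psmb8 encodes the inducible subunit with chymotrypsin-like activity. At E13, Psmb8 measured 188, 189 and 204 CPM in the saline libraries and 194, 177 and 224 in the MIA libraries. At E15, Psmb8 measured 246, 165 and 169 after saline and 210, 166 and 148 after MIA. At P14, its level was 201, 185, 181 and 175 after saline and 199 and 184 after MIA. The treatment groups overlapped at each age, and replicate 1 was the highest library of both E15 groups.

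Psmb9 encodes the inducible subunit that stands in for the caspase-like Psmb6. At E13, Psmb9 measured 58.3, 60.4 and 64.8 CPM after saline and 66.1, 67.6 and 68.3 after MIA. At E15, Psmb9 measured 82.9, 48.8 and 42.4 after saline and 56.8, 48.9 and 38.3 after MIA. At P14, its level was 63.6, 61.8, 59.9 and 57.1 after saline and 66.0 and 64.2 after MIA. The MIA libraries lay above all saline libraries at E13 and at P14, by small margins, while at E15 the groups overlapped. The E15 libraries spread most, with saline replicate 1 far above the others.

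Psmb10 encodes the inducible trypsin-like subunit. At E13, Psmb10 measured 108, 119 and 121 CPM after saline and 112, 116 and 134 after MIA. At E15, Psmb10 measured 122, 89.1 and 88.6 after saline and 111, 83.1 and 78.8 after MIA. At P14, its level was 105, 102, 94.6 and 90.0 after saline and 110 and 104 after MIA. Replicate 1 was again highest in both E15 groups, and treatment groups overlapped at all 3 ages.

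Psme1 encodes the alpha subunit of PA28. At E13, Psme1 measured 326, 301 and 320.5 CPM after saline and 323, 304 and 341 after MIA. At E15, Psme1 measured 346, 274 and 255 after saline and 322, 279.6 and 252 after MIA. At P14, its level was 303, 284, 254 and 249 after saline and 309 and 301 after MIA. Its treatment groups overlapped throughout. Psme2 encodes the beta subunit that alternates with it in the ring. At E13, Psme2 measured 198, 238 and 232 after saline and 218, 217 and 285 after MIA. At E15, Psme2 measured 258, 173 and 160.2 after saline and 220.5, 155 and 137 after MIA. At P14, its level was 143, 136, 148 and 137 after saline and 153 and 143 after MIA. Every P14 saline library lay below every E15 saline library for Psme2, whereas the MIA libraries of both ages overlapped.

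**Figure D1:**
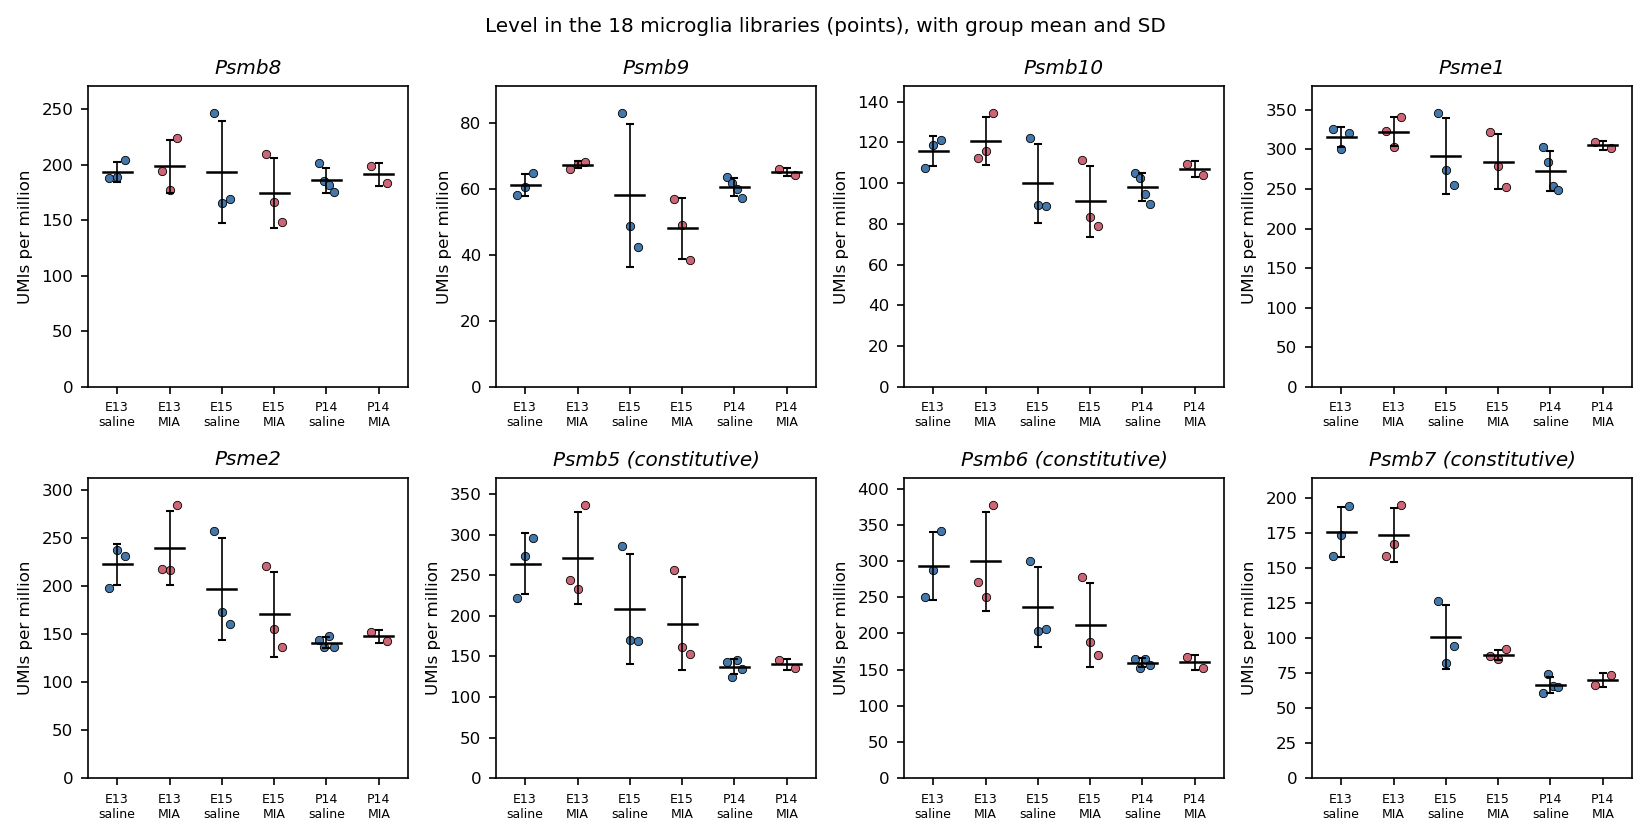
Level of the 5 genes and of the 3 constitutive counterparts, in CPM (y axis, from 0), in each of the 18 microglia libraries (points) by age and treatment (blue saline, red MIA). Horizontal bars are group means and vertical bars are SDs, and the P14 points of Psmb8, Psmb9 and Psmb10 lie within the range of the embryonic libraries while those of Psmb7 lie below it.

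To ask whether maternal inflammation moved these genes, MIA was compared with saline within each age by edgeR's quasi-likelihood test across all genes, with Benjamini-Hochberg adjustment and a threshold of 0.05. No member was called, against 0% of all 12408 genes tested at E13, 0% of 13174 at E15 and 0% of 13024 at P14. At an unadjusted p under 0.05 these comparisons held 100, 37 and 463 genes, and DESeq2 called 2, 0 and 1. A block for the replicate number gave 6, 0 and 1 calls in edgeR, none of them a member. Within the 3 same-numbered pairs, Psmb9 was higher after MIA in all 3 at E13, and Psmb10 and Psme2 were lower in all 3 at E15, while the other members went both ways. With 3 pairs the smallest two-sided exact sign-flip p is 0.25, so these directions cannot decide whether a member changed. At E13 the log2 fold changes were 0.03 ± 0.14 (SE) for Psmb8, 0.13 ± 0.11 for Psmb9 and 0.05 ± 0.13 for Psmb10. The PA28 genes gave 0.02 ± 0.13 for Psme1 and 0.10 ± 0.15 for Psme2 at the same age. At E15 all 5 estimates were negative, from -0.26 ± 0.30 for Psmb9 to -0.02 ± 0.21 for Psme1, and at P14 all were positive, from 0.06 ± 0.10 for Psmb8 to 0.18 ± 0.12 for Psme1. The lowest adjusted p was 1.00 at E13 and E15 and 0.948 at P14. Over all alternatives of the fit it was no lower than 0.932 at E13, 0.997 at E15 and 0.420 at P14.

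Genes around the proteasome gave the same count of 0 called at each age. Among 19 interferon-stimulated genes, such as Isg15 and the Ifit family, the median log2 fold change after MIA was 0.78 at E13, -0.16 at E15 and -0.24 at P14, compared with 0.05, -0.13 and 0.13 for the 5 members and 0.00 over all genes at each age. The summed level of 10 interferon-responsive markers was 281 to 445 CPM in E13 saline libraries and 368 to 564 in E13 MIA libraries. These ranges overlapped, but the level was higher after MIA in each of the 3 same-numbered pairs (445 and 525, 281 and 564, 302 and 368), where 3 pairs cannot give a two-sided exact p below 0.25. Whether the response differed between ages was tested as an interaction. No gene was called for E15 minus E13 (0% of 13510) or for P14 minus E15 (0% of 13962), with 51 and 107 genes at an unadjusted p under 0.05. The members' differences in response ranged from -0.33 ± 0.35 for Psmb9 to 0.01 ± 0.25 for Psme1 in the former and from 0.21 ± 0.29 for Psmb8 to 0.40 ± 0.35 for Psmb9 in the latter. All alternatives of the fit gave 0 members called in these comparisons.

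Between E13 and E15 the inducible genes were not called. Of the 3 constitutive counterparts only Psmb7 was called lower, in both treatments, while Psmb5 and Psmb6 were not called either. In saline microglia 0 of 5 members were called, against 26.2% of all 13497 genes (11.2% lower and 15% higher). In MIA microglia 0 of 5 were called, against 19.9% of 13715 genes (9.35% lower and 10.6% higher), or 1804 genes with the replicate block in place of 2731. Log2 fold changes in saline microglia were 0.02 ± 0.17 for Psmb8, -0.05 ± 0.22 for Psmb9 and -0.19 ± 0.15 for Psmb10. PA28 gave -0.09 ± 0.15 for Psme1 and -0.15 ± 0.18 for Psme2. In MIA microglia the lowest values were -0.39 ± 0.17 for Psmb9 and -0.39 ± 0.23 for Psme2 (adjusted p = 0.144 and 0.242). Psmb7 fell from 176 ± 17.9 (SD, n = 3) to 101 ± 22.7 CPM in saline microglia (log2 -0.78 ± 0.16, edgeR adjusted p = 0.00623) and from a mean of 174 to 87.9 CPM in MIA microglia (log2 -0.90 ± 0.14, adjusted p = 0.00287).

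These counts rested on the E15 replicate 1 libraries, which were high for all 5 genes. Without E15 saline replicate 1, 3 members were called lower at E15, namely Psmb9 by -0.42, Psmb10 by -0.38 and Psme2 by -0.42 (log2, edgeR adjusted p = 0.0114, 0.0178 and 0.0126), against 19.9% of the 13655 genes tested in that fit called lower. The constitutive Psmb5 (-0.64) and Psmb6 (-0.52) were called lower in it too (edgeR adjusted p = 0.00272 and 0.00834). Over all alternatives of the saline comparison the adjusted p ranged from 0.0114 to 0.989 for Psmb9, from 0.0178 to 0.741 for Psmb10 and from 0.0126 to 1 for Psme2. Without E15 MIA replicate 1, the library with most other cell types, the same 3 genes were called lower in MIA microglia, at -0.58 for Psmb9, -0.54 for Psmb10 and -0.69 for Psme2 (log2, edgeR adjusted p = 0.00914, 0.0130 and 0.0111), against 15.3% of 13434 genes. In that fit Psmb5 (-0.76) and Psmb6 (-0.71) were also called lower (edgeR adjusted p = 0.00998 and 0.0204). With every cell past the filter, other cell types included, Psmb9 and Psmb10 were called lower in MIA microglia, against 7.86% of genes. Over all alternatives of the MIA comparison the adjusted p ranged up to 0.305 for Psmb9, 0.549 for Psmb10 and 0.574 for Psme2. Psmb8 and Psme1 were called in no alternative of either comparison.

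Some genes of the standard proteasome fell over this step, where 11.2% of all genes in saline and 9.35% in MIA microglia were called lower. Of 11 other 20S subunits 3 were called lower in saline and 4 in MIA microglia. Of 18 genes of the 19S cap 5 and 4 were called lower, and of 8 assembly factors and other regulators 5 and 4. Psme3, which encodes the nuclear PA28-gamma homologue, fell by 0.94 ± 0.12 on the log2 scale in saline microglia (adjusted p = 0.000579). Psmg1, an assembly chaperone, fell by 0.98 ± 0.23 in the same comparison. Interferon-stimulated genes went the other way in saline microglia, with 8 of 19 higher, against 15% of all genes, and a median of 1.16, including Ifit2 by 2.47 ± 0.54 and Irf7 by 1.94 ± 0.43. In MIA microglia 3 of these 19 were higher and 2 lower, against 10.6% and 9.35%. Of the interferon signalling genes, 4 of 13 tested were higher in saline microglia, led by the interferon-gamma receptor gene Ifngr1 (0.94 ± 0.11), and 1 of 11 peptide loading genes, the transporter gene Tap1, rose by 0.46 ± 0.14 (adjusted p = 0.0350). The peptide loading share of 1 in 11 is below the 15% of all genes called higher. In MIA microglia 2 of 14 interferon signalling genes, near the 10.6% of all genes, and 0 of 11 peptide loading genes were higher.

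Between E15 and P14, Psme2 was the only member called lower in saline microglia. Psme2 went from 197 ± 53.1 (SD, n = 3) to 141 ± 5.68 CPM (n = 4). Its log2 fold change was -0.73 ± 0.17 (edgeR adjusted p = 0.00341) and it was called in all 19 alternatives, with adjusted p from 0.00017 to 0.0125. That is 1 of 5 members, against 52% of all 13497 genes (26.4% lower and 25.6% higher), and a share of 1 in 5 is below that background. The other members gave -0.30 ± 0.15 for Psmb8, -0.19 ± 0.20 for Psmb9, -0.27 ± 0.14 for Psmb10 and -0.34 ± 0.14 for Psme1. Psme1 missed the threshold at an adjusted p of 0.0619, within a range of 0.0198 to 0.236 over the alternatives. In MIA microglia 0 of 5 were called, against 30.3% of 13715 genes (15.6% lower and 14.7% higher), and Psme2 gave -0.43 ± 0.26 (adjusted p = 0.230). The difference between the MIA and the saline change of Psme2 was not called by the interaction test above (0.29 ± 0.33).

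This count moved with the libraries. Without E15 saline replicate 3, 4 members were called lower, Psmb8 by -0.42, Psmb10 by -0.38 and Psme1 by -0.45 beside Psme2, against 27.7% of all genes called lower in that fit. Without P14 saline replicate 1, without dividing clusters, or by DESeq2, 2 were called lower, Psme1 and Psme2, against 24.7%, 25.3% and 27.3% of all genes. All libraries of an age shared that age alone, so any difference in collection or sequencing between ages cannot be told apart from age.

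The constitutive counterparts all fell over the same step in saline microglia. In these microglia Psmb5 changed by -0.85 ± 0.20, Psmb6 by -0.81 ± 0.17 and Psmb7 by -0.85 ± 0.15 on the log2 scale (adjusted p = 0.00338, 0.00166 and 0.000732). All 11 other 20S subunits fell, against 26.4% of all genes called lower, with a median of -0.69, compared with medians of -0.30 for the 5 members and 0.03 for all genes. Psmb1, a non-catalytic subunit of the barrel, fell by 1.02 ± 0.13 and the assembly factor genes Psmg4 and Pomp by 1.02 ± 0.12 and 0.78 ± 0.13. Of the 19S genes 9 of 18 were called lower. In MIA microglia Psmb7 was called lower (-0.54 ± 0.16, edgeR adjusted p = 0.0285, but 0.0996 with the replicate block). So were 3 of 11 other 20S subunits, 0 of 18 genes of the 19S cap and 2 of 8 regulators, against 15.6% of all genes.

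Interferon genes went in both directions at P14. Of the 19 interferon-stimulated genes, 15 were lower than at E15 in saline microglia (median -1.95) and 15 in MIA microglia (median -1.90), against 26.4% and 15.6% of all genes, including Ifi204 by -3.34 ± 0.42 and -3.41 ± 0.42. Of the interferon signalling genes, 6 of 13 were higher and 0 lower in saline microglia, and 4 of 14 were higher and 1 lower in MIA microglia, against 25.6% and 14.7% of all genes higher. The gene called lower was Ifnb1, the interferon-beta gene, which had 2 to 31 UMIs in the E15 MIA libraries and 0 in both P14 MIA libraries. Among those called higher, Irf1, a transcription factor of the interferon-gamma response, rose by 0.68 ± 0.10 in saline and 0.87 ± 0.14 in MIA microglia, and Ifngr1 rose by 0.73 ± 0.10 and 0.76 ± 0.16. Of the 11 peptide loading genes, 2 were called higher and 2 lower in saline microglia, shares below those of all genes (25.6% higher and 26.4% lower). In MIA microglia 2 were called higher and 1 lower. Tapbp and Tap2 rose in both, and Nlrc5, a transactivator of MHC class I genes, fell in both. Both steps share the E15 libraries.

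**Figure D2:**
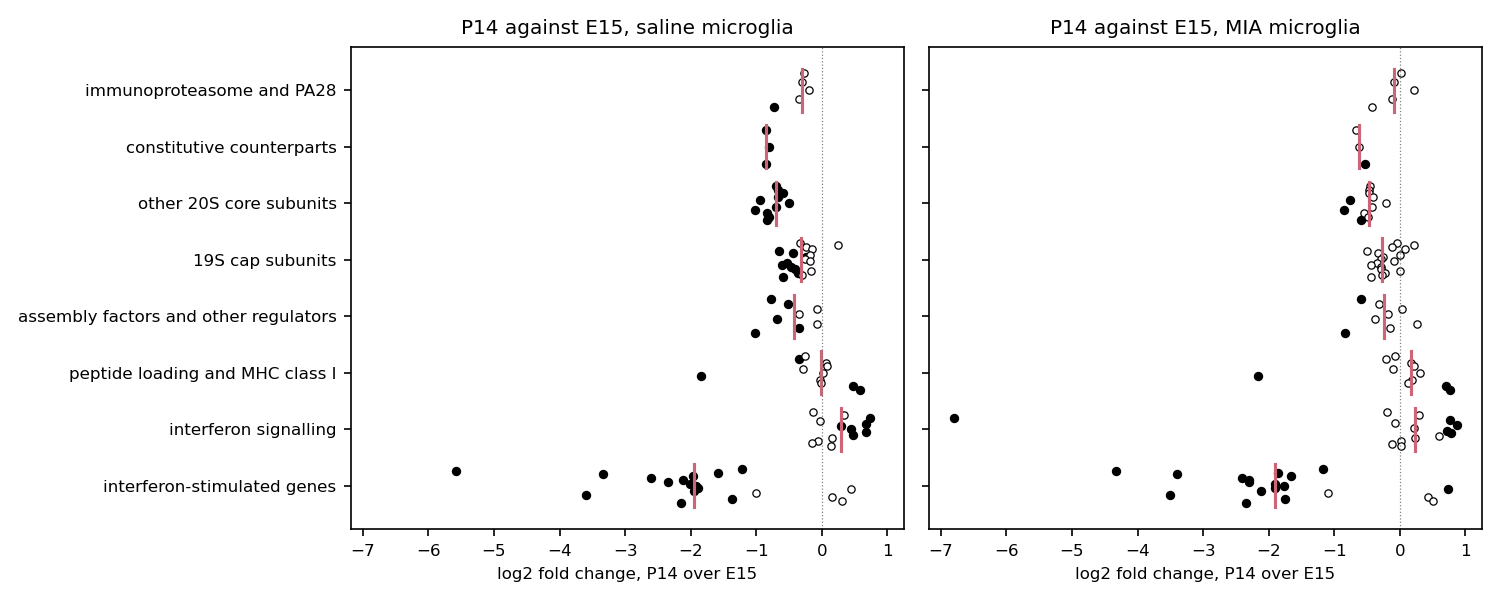
Log2 fold change from E15 to P14 (x axis) of every tested gene of each list (rows), in saline (left) and MIA (right) microglia. Filled points passed the adjusted threshold and red bars are list medians, and the median of the other 20S subunits (-0.69 and -0.47) lies to the left of that of the immunoproteasome and PA28 genes (-0.30 and -0.09) in both panels.

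The balance between the inducible and constitutive transcripts was followed as the ratio of their UMIs within a library, which is free of library size. Other differences between libraries can remain in the ratio. At E15, replicate 1 had the lowest Psmb8 to Psmb5 of both groups (0.860 after saline and 0.818 after MIA). The form of the proteasome itself was not measured. The ratio describes change in a pair of genes and not their relative amounts, since 3′ capture differs between genes. For Psmb8 to Psmb5, the 6 libraries ranged from 0.667 to 0.847 at E13 (median 0.723), from 0.818 to 1.03 at E15 (median 0.969) and from 1.25 to 1.48 at P14 (median 1.36). For Psmb10 to Psmb7 they ranged from 0.623 to 0.709 at E13 (median 0.686), from 0.857 to 1.28 at E15 (median 0.975) and from 1.37 to 1.74 at P14 (median 1.42). For Psmb9 to Psmb6 they ranged from 0.181 to 0.271 at E13 (median 0.222), from 0.204 to 0.277 at E15 (median 0.233) and from 0.364 to 0.420 at P14 (median 0.390). All 3 ratios were higher in every P14 library than in every embryonic library. Psmb10 to Psmb7 also separated E13 from E15 completely, Psmb8 to Psmb5 overlapped slightly and Psmb9 to Psmb6 overlapped widely. From E15 to P14 the higher ratios came with lower counterparts, and no member was called higher. The median log2 fold change in saline microglia was -0.85 for the 3 counterparts, -0.30 for the 5 members and 0.03 for all genes. In MIA microglia these medians were -0.63, -0.09 and 0.03. A gene with no change would also rise against such counterparts, and the ratios were not compared with those of other genes.

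The age steps were tested by two-sided exact permutation of libraries within saline and within MIA, adjusted over the 6 tests. From E15 to P14 the mean log2 ratio rose by 0.53 for Psmb8 to Psmb5, 0.75 for Psmb9 to Psmb6 and 0.57 for Psmb10 to Psmb7 (each exact permutation p = 0.00286, the smallest that 350 arrangements can give, adjusted p = 0.00571). From E13 to E15 it rose by 0.35 for Psmb8 to Psmb5 and 0.57 for Psmb10 to Psmb7 (each exact permutation p = 0.005, the smallest of 400 arrangements, adjusted p = 0.006), and with every cell past the filter the rise of Psmb8 to Psmb5 was 0.25 and not called (adjusted p = 0.084). Psmb9 to Psmb6 gave 0.09 over that step (exact permutation p = 0.465). These tests treat saline and MIA libraries as independent, whereas same-numbered embryonic libraries deviated together. When each numbered pair of E13 and E15 libraries was moved as a unit, the exact permutation p was 0.1 for Psmb8 to Psmb5 and for Psmb10 to Psmb7, the smallest that 20 arrangements can give (adjusted p = 0.15), so that test cannot reach the threshold. The P14 saline libraries 3-female and 3-male share a replicate number. With both summed as 1 replicate, the rises from E15 to P14 were 0.55, 0.76 and 0.58 for the ratios of Psmb8, Psmb9 and Psmb10 (exact permutation adjusted p = 0.0075, 0.0075 and 0.012). In saline libraries alone, the exact permutation p was 0.0286 for each with these libraries apart and 0.1 with them summed, in each case the smallest the design allows. The rises were of like size in saline and MIA libraries, 0.52 and 0.54 for Psmb8 to Psmb5 and 0.67 and 0.83 for Psmb9 to Psmb6 from E15 to P14. MIA against saline within ages gave -0.00, 0.05 and 0.05 for the 3 ratios in the same order (exact permutation adjusted p = 0.965, 0.792 and 0.792). Cells in dividing clusters became fewer with age, as given above, and without them the rises were 0.32 and 0.51 for Psmb8 to Psmb5 and 0.52 and 0.50 for Psmb10 to Psmb7 over both steps, and 0.73 for Psmb9 to Psmb6 from E15 to P14. Without the 3 clusters with replication genes as well, a set chosen after seeing the data, the rises were 0.26 and 0.49 for Psmb8 to Psmb5, 0.46 and 0.47 for Psmb10 to Psmb7 and 0.75 for Psmb9 to Psmb6 in the same order (exact permutation adjusted p at most 0.048). With each shared barcode kept once, the rises from E15 to P14 were 0.55 for Psmb8 to Psmb5, 0.76 for Psmb9 to Psmb6 and 0.61 for Psmb10 to Psmb7.

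**Figure D3:**
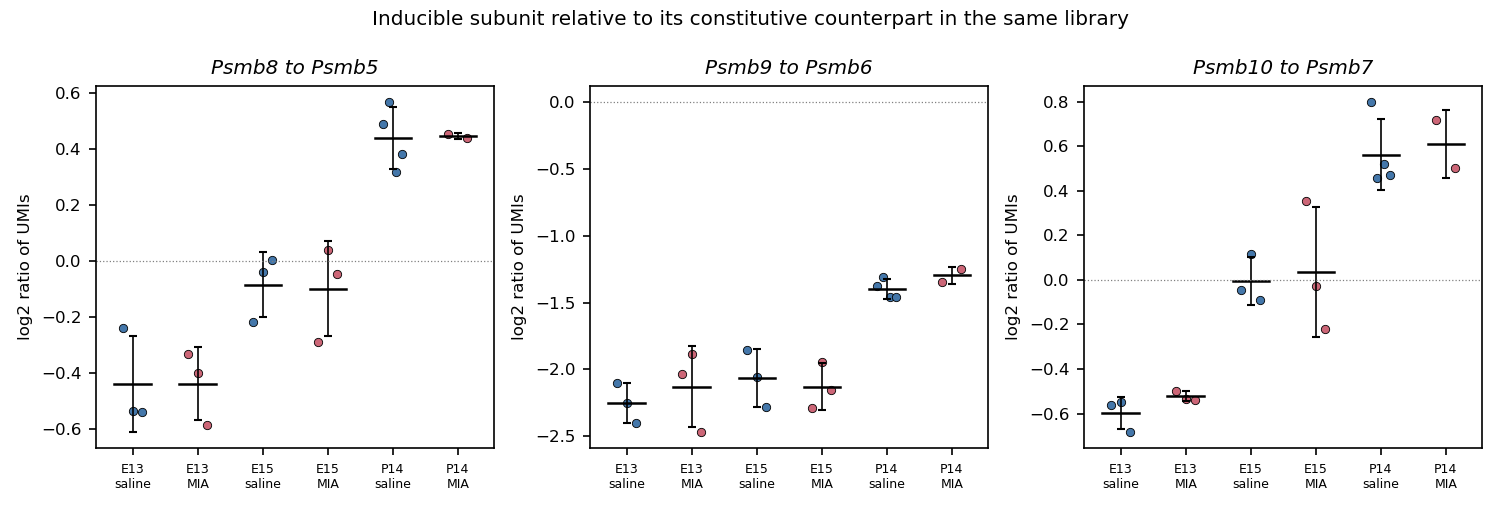
Log2 ratio of the UMIs of each inducible subunit to those of its constitutive counterpart (y axis) in each of the 18 microglia libraries (points), by age and treatment, with group means and SDs. The 6 P14 libraries lie above all 12 embryonic libraries in each panel, and saline (blue) and MIA (red) overlap at each age except for Psmb10 to Psmb7 at E13, where the MIA libraries (0.689 to 0.709 as a ratio) lie above the saline libraries (0.623 to 0.684).

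Within a library, all 5 genes were higher in a small interferon-responsive group of microglia than in the rest. This group was 1 cluster of 504 embryonic cells, led by Cxcl10, Ifit3 and Isg15, and 1 cluster of 1019 P14 cells, led by Ifitm3, Ifit3 and Isg15, and it made up 0.347% to 4.61% of kept microglia. Since the clusters were built from expression, the comparison is a description with no test. In the 13 libraries with at least 20 such cells, each of the 5 genes was higher in them than in the other microglia in 13 of 13. The median ratio was 1.68 for Psmb8, 2.38 for Psmb9, 1.60 for Psmb10, 1.57 for Psme1 and 1.45 for Psme2. The constitutive subunits gave medians of 1.00 for Psmb5, 0.974 for Psmb6 and 0.877 for Psmb7 and were higher in 7, 6 and 2 of the 13 libraries.

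The median ratio was larger at E15 than at P14 for each gene, although the clusters of both ages come from separate clusterings. At E15, Psmb9 stood at 194, 186 and 108 CPM in the interferon-responsive cells of the saline libraries, against 81.5, 41.9 and 40.6 in their other microglia. In the E15 MIA libraries Psmb9 stood at 242, 182 and 132 in these cells, against 52.3, 46.0 and 36.3 in the others. The median E15 ratio over the 6 libraries was 3.79 for Psmb9, 3.83 for Psmb10, 2.49 for Psmb8, 2.34 for Psme1 and 2.16 for Psme2. At P14 the medians fell between 1.28 for Psmb8 and 1.46 for Psmb9. E15 saline replicate 1, the library with high levels throughout, gave the lowest E15 ratio for each of the 5 genes, such as 1.80 for Psmb8, 2.38 for Psmb9 and 1.76 for Psmb10. At E13 only MIA replicate 3 held 20 or more such cells (28), with a ratio of 2.54 for Psmb9.

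**Figure D4:**
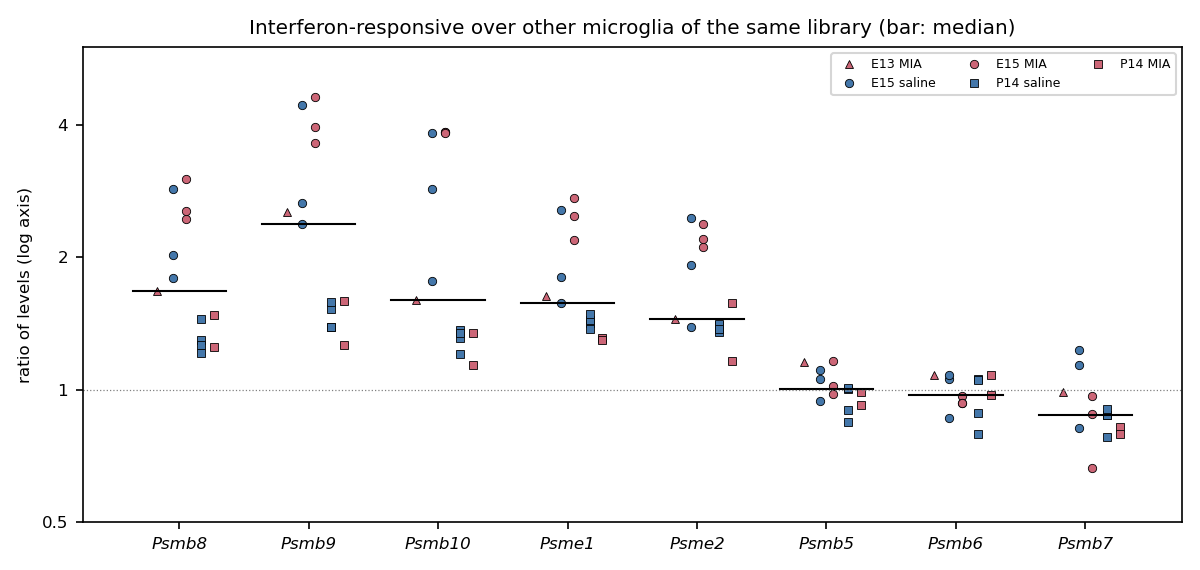
Ratio (y axis, log scale) of the level in interferon-responsive microglia to that in the other microglia of the same library, for the 5 genes and the 3 constitutive subunits, in the 13 libraries with at least 20 interferon-responsive cells. Triangles are E13, circles E15 and squares P14, bars are medians, and all points of the 5 genes lie above 1 whereas those of Psmb5, Psmb6 and Psmb7 lie on both sides of it.

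The genes were not restricted to that group. With each cell thinned to 2000 UMIs, and 508 to 1375 shallower cells left out per group, the share of microglia with a UMI ranged over the 18 libraries from 26.9% to 38.6% for Psmb8, from 7.42% to 15.7% for Psmb9 and from 14.5% to 23.7% for Psmb10. The shares that follow are over the pooled cells of a group. Those of neuron-like cells pool both treatments. E15 MIA replicate 1 held 68.8% of the embryonic neuron cluster and 49.3% of the embryonic interneuron cluster. Neuron-like cells that had passed the sort at E15 gave 1.57% for Psmb8, 0% of 638 cells for Psmb9 and 5.17% for Psmb10, at a median depth of 10156 UMIs before thinning, compared with 10247 for saline microglia of that age. Of the 768 neurons 130 were too shallow to be thinned, and 0 of 638 allows a share of up to 0.470% of such thinned cells with a UMI. The shares before thinning were 74.0% for Psmb8 in E15 saline microglia and 5.34% in the neurons, and 42.7% and 1.17% for Psmb9. At E15, Psme1 was found in 43.4% of saline microglia and 34.3% of neurons, and Psme2 in 31.4% and 20.1%. At P14 the shares were 40.7% and 8.93% for Psme1 and 23.97% and 1.79% for Psme2, although only 112 of the 189 P14 neurons could be thinned and their median depth was 2468 UMIs, compared with 5135 in saline microglia. Without the interferon-responsive clusters no call on a member changed.

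Over the 18 libraries the members went up and down together around their group means. Pearson's r of these deviations, on the log2 scale, ranged from 0.766 for Psme1 with Psme2 to 0.948 for Psmb8 with Psmb10, as a description over libraries that share depth and library-wide shifts. The genes most like each member among 5949 were Lamtor2 for Psmb8 (r = 0.993), Pdcl3 for Psmb9 (0.956), Zfp706 for Psmb10 (0.980), Ndufa7 for Psme1 (0.978) and the 20S subunit Psmb2 for Psme2 (0.992). Of the levels themselves, those of Psme2 followed Psmb2 (0.991), Mdh2 (0.991) and the 20S subunit Psmb3 (0.986), while the closest gene to Psmb9 was Nsfl1c (0.893).

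In cortical nuclei Psmb8 and Psmb9 were counted only a few times, and PA28 was counted in every library. Psmb8 gave 23 UMIs and Psmb9 11 UMIs in all 41539 nuclei, or 0.235 and 0.113 CPM (exact Poisson 95% intervals of 0.149 to 0.353 and 0.0562 to 0.202), compared with 148 to 246 and 38.3 to 82.9 in the sorted microglia. By library Psmb8 gave between 2 and 5 UMIs and Psmb9 between 0 and 3, where a count of 0 allows up to 3. Psmb10 gave 749 UMIs, or 7.67 CPM, Psme1 117 and Psme2 53.6. The sorted microglia are whole cells, and the effect of comparing nuclei with whole cells was not tested. The neuron cluster of the sorted E15 libraries, also whole cells, gave 4.96 CPM for Psmb8 and 0.993 for Psmb9. It gave 24.6 for Psmb10, 193 for Psme1 and 125 for Psme2. Droplets without a nucleus, in the 4 replicate 1 libraries, gave 2.23 for Psmb8, 0.798 for Psmb9, 17.7 for Psmb10, 162 for Psme1 and 97.7 for Psme2, compared with 0.196, 0.125, 7.39, 109 and 51.4 in the nuclei of the same libraries. Of the droplet UMIs, 10 of 14 for Psmb8 and 4 of 5 for Psmb9 came from WT MIA replicate 1, and the other 3 libraries gave 0.822 CPM for Psmb8 (interval 0.224 to 2.10) and 0.205 for Psmb9 (interval 0.00520 to 1.14). The nuclei of those 3 libraries gave 0.151 (interval 0.0554 to 0.329) and 0.101 (interval 0.0274 to 0.258), so the intervals overlapped for both genes. The nuclear values were therefore not above the level in these droplets, and the share of free RNA in them was not tested. These intervals and limits cover counting error only.

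Cell types are clusters called like a type from its marker genes, and 7 clusters without a call were left out of these values. Psmb8 had 0 UMIs in apical progenitors, interneurons, migrating neurons and Cajal-Retzius cells, and 9 of its 23 UMIs in corticothalamic projection neurons. Psme1 ranged from 86.6 CPM in corticothalamic projection neurons to 135 in intermediate progenitors, and Psme2 from 35.6 to 70.0 in migrating neurons. Psmb10 ranged from 5.27 to 9.14 in the 7 larger cell types and was 24.5 (95% interval 13.1 to 41.9) from 13 UMIs in 138 Cajal-Retzius cells. The 31 microglia-like nuclei held 3 UMIs of Psmb8, 2 of Psmb9, 6 of Psmb10, 6 of Psme1 and 2 of Psme2 among 54907, or 54.6 CPM for Psmb8 with an interval of 11.3 to 160. These nuclei were too few to compare treatments.

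**Figure D5:**
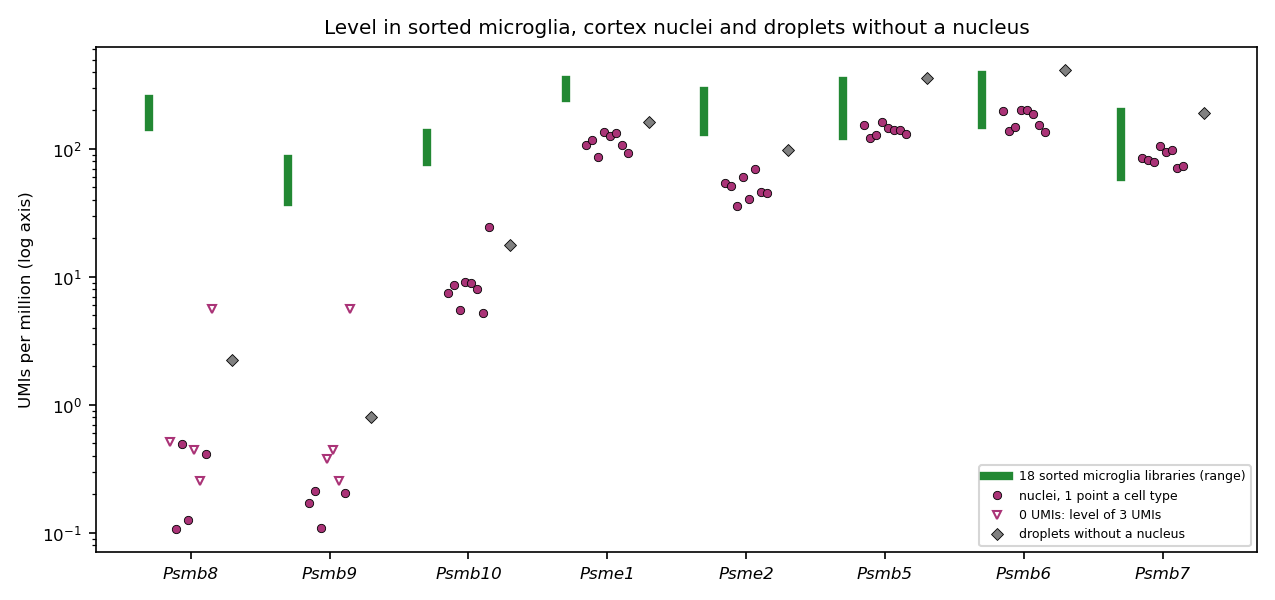
Level in CPM (y axis, log scale) of the 5 genes and the 3 constitutive subunits in the 18 sorted microglia libraries (green range), in nuclei (1 purple point for each of 8 cell types, microglia-like nuclei not plotted, open triangles at the level of 3 UMIs where none was counted) and in droplets without a nucleus (grey diamonds). Psmb8 and Psmb9 in nuclei reach at most 0.491 and 0.213 in a plotted cell type with a count, far under the microglia range, whereas Psme1 and Psme2 lie closer to it. The microglia are whole cells, so the type of sample differs from the nuclei as well as the cell type.

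Psmb8 and Psmb9 did not pass the filter on low counts, so 3 of the 5 members were tested in nuclei. Psme1 measured 137 and 143 CPM in WT saline, 102 and 118 in WT MIA, 108 and 114 in KO saline and 91.7 and 138 in KO MIA. Psme2 measured 61.7 and 69.0 in WT saline, 49.0 and 49.8 in WT MIA, 55.2 and 50.4 in KO saline and 41.7 and 55.0 in KO MIA. Psmb10 measured 6.20 and 9.51, 9.12 and 6.68, 6.64 and 8.41, and 7.10 and 7.52 in the same order. Both WT saline libraries were above all others for Psme2, KO MIA replicate 2 reached the level of WT saline for Psme1, and Psmb10 overlapped in all groups.

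MIA against saline in wild-type nuclei gave log2 fold changes of -0.42 ± 0.25 for Psme1, -0.48 ± 0.21 for Psme2 and -0.08 ± 0.32 for Psmb10. None was called, against 0% of 14384 genes, 808 of which had an unadjusted p under 0.05. The constitutive subunits gave -0.74 ± 0.26 for Psmb5, -0.77 ± 0.21 for Psmb6 and -0.69 ± 0.17 for Psmb7 (each adjusted p = 0.886), and the 11 other 20S subunits a median of -0.68, compared with 0.01 for all genes. In Csf1r-null nuclei the members ranged from -0.11 ± 0.21 for Psme2 to 0.06 ± 0.25 for Psme1, against 0% of genes called and 33 at an unadjusted p under 0.05. The difference of the responses between genotypes was 0.48 ± 0.35 for Psme1 and 0.37 ± 0.29 for Psme2 (adjusted p = 1.00, against 0% called). Csf1r-null against wild type was not called after saline (-0.35 ± 0.25 for Psme1 and -0.33 ± 0.21 for Psme2, against 0%) or after MIA (0.13 ± 0.25 and 0.04 ± 0.21, against 0%). DESeq2 called 4 genes for MIA in wild-type nuclei and 1 in Csf1r-null nuclei, and the replicate block called 2 genes each for the genotype difference of the response and for Csf1r-null against wild type after saline, none of them a member.

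Within the 7 cell types, no member was called after MIA in wild-type or Csf1r-null nuclei, against 0% of 69266 gene tests each. The lowest unadjusted p was that of Psme2 in wild-type migrating neurons (-0.80 ± 0.26, adjusted p = 0.420). A block for the replicate number gave 307 called gene tests in wild-type cell types, none of them a member, and Psme2 in migrating neurons came to an adjusted p of 0.0521. Under that block, of the constitutive counterparts, Psmb6 was called lower in migrating neurons (-0.95, adjusted p = 0.00997), as were Psmb5 (-0.83, 0.0310) and Psmb7 (-0.88, 0.0253). Without the block their adjusted p was 0.406 for Psmb6 and Psmb7 and 0.420 for Psmb5, and over the alternatives that of Psmb6 ranged from 0.00997 to 0.998. These comparisons include WT MIA replicate 2, whose microglial genes went against its label. Without it and KO saline replicate 2, MIA against saline over all wild-type nuclei gave -0.55 for Psme1, -0.52 for Psme2 and 0.10 for Psmb10, and Csf1r-null nuclei gave 0.15, -0.13 and 0.19. No member was called in that fit, in which the lone libraries are assumed to vary like the other groups.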

How the data were processed

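The deposited files hold UMI counts per gene and cell, made by the authors with Cell Ranger against mm10 (3.1.0 per the labels, while the file headers of the nuclei replicate 2 libraries give 6.0.1). The members and gene lists were chosen with earlier results of these data known. Microglia needed 500 or more genes with no more than 20% of UMIs mitochondrial, and nuclei 500 or more UMIs and 200 or more genes. Doublets were removed by the highest Scrublet scores, at 0.8% per 1000 cells. Cells were clustered with scanpy 1.11.5 and Leiden (2000 variable genes, 30 components, 20 neighbours, resolution 1.0), and clusters of other cell types were removed. Counts were summed per library and tested with edgeR 4.0.16 (TMM, filterByExpr, quasi-likelihood), with DESeq2 1.42.0 as an alternative. Droplets of at most 50 UMIs gave the free RNA. The study used sex and sequencing batch as covariates, neither of which was used here. Named genes were the members, their counterparts, and at most the 3 called genes of lowest adjusted p from each list and comparison. Same-numbered embryonic microglia libraries deviated together (r from 0.245 to 0.725), as did the nuclei libraries (0.526 to 0.756), where the number also marks the Cell Ranger version. They were therefore treated as paired in an alternative fit with a replicate block. In the fits by age that block also tied same-numbered libraries of different ages, for which no such likeness was examined. The P14 groups have 2 same-numbered pairs (r = 0.401 and 0.446), too few to decide whether the number pairs them. The tests were checked on simulated data with known changes.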

Additional observations from a re-analysis of the deposited data

Results flagged for a closer look

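Droplets without a nucleus, which enter no comparison, gave higher values than the nuclei of the same libraries for each of the 5 genes. Over the 4 replicate 1 nuclei libraries they gave 2.23 CPM for Psmb8 (14 UMIs) and 0.798 for Psmb9 (5 UMIs), against 0.196 and 0.125 in nuclei. Psmb10 gave 17.7 against 7.39, Psme1 gave 162 against 109 and Psme2 gave 97.7 against 51.4. The constitutive subunits Psmb5, Psmb6 and Psmb7 gave 358, 414 and 189.9 in the same droplets, against 139, 172 and 90.9 in the nuclei. The higher value in droplets was therefore not particular to the 5 genes. By library the droplets ranged from 0 to 7.15 for Psmb8 and from 0 to 2.86 for Psmb9, both highest in WT MIA replicate 1. Without that library, left out after seeing the data, they gave 0.822 for Psmb8 (4 UMIs) and 0.205 for Psmb9 (1 UMI), against 0.151 and 0.101 in the nuclei of those 3 libraries, with exact Poisson 95% intervals that overlap for both genes. In P14 saline, the group of 4 libraries, Dixon's test (critical value 0.829) set no library apart in the 11 levels and ratios examined. Replicate 1 lay near that limit for Psmb10 to Psmb7, with a ratio of 1.74 against 1.37 to 1.43 in the others. There the outcome depends on whether the ratio or its log2 is used.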

How the results depend on the processing

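Leaving out single libraries moved the count of members called from 0 to between 0 and 3 for E15 against E13 in saline microglia (3 without E15 saline replicate 1) and between 0 and 3 in MIA microglia (3 without E15 MIA replicate 1). For P14 against E15 in saline microglia it ranged from 1 to 4, against 1 as reported (4 without E15 saline replicate 3 and 2 without P14 saline replicate 1). That last count was also 2 by DESeq2 and 2 without dividing clusters, and the MIA count for E15 against E13 was 2 with every cell past the filter. The log2 ratio of Psmb8 to Psmb5, E15 minus E13, was 0.25 with every cell past the filter (exact permutation adjusted p = 0.084). With same-numbered libraries moved together as a replicate block, the E15 minus E13 log2 ratios of 0.35 for Psmb8 to Psmb5 and 0.57 for Psmb10 to Psmb7 had an exact permutation p of 0.1, the smallest such a block allows, and an adjusted p of 0.15. In saline libraries alone, with both P14 replicate 3 libraries summed, the P14 minus E15 log2 ratios of 0.55, 0.69 and 0.59 for the ratios of Psmb8, Psmb9 and Psmb10 had an exact permutation p of 0.1, again the smallest possible. The causes were not tested. Of the other counts of members called, 130 with a library left out and 126 under other settings stayed within 1.5 times, and no called result changed sign. Estimates that were not called did so, such as Csf1r-null against wild type after MIA, from -0.30 to 0.47 for Psme1 and from -0.27 to 0.31 for Psme2, Psmb8 for E15 against E13 in saline microglia, from -0.21 to 0.14, and Psmb9 to Psmb6 for E15 minus E13, down to -0.01. With the replicate block Psme2 at P14 against E15 in saline microglia gave -0.69 (edgeR adjusted p = 0.00854), the adjusted p of Psmb7 in MIA microglia at P14 rose to 0.0996, and no call on a member changed. Counts over all genes moved more: for MIA at E13 they were 2 by DESeq2, 6 with the replicate block and 15 without E13 MIA replicate 3, against 0. With a library left out they ranged for E15 against E13 from 1832 to 5691 in saline microglia (3537 as reported) and from 1249 to 4167 in MIA microglia (2731 as reported, 1804 with the block), and for P14 against E15 in MIA microglia they fell to 1778 (4150 as reported). In nuclei, where 0 genes were called, other settings called at most 8 for MIA in wild type, 2 in Csf1r-null, 2 for their difference and 13 for Csf1r-null against wild type after saline. In wild-type cell types they called up to 553 (without WT saline replicate 2), with 350 without a filter on low counts and 307 with the block, and in Csf1r-null cell types at most 1. Shares of cells with a UMI rose when cells were not thinned, to a median library of 69.8% from 30.4% for Psmb8. Psmb8 and Psmb9 did not pass the filter on low counts in nuclei and were not tested there.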
